A study of Mus musculus with 36 samples.

Results

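Levels of 8 genes for growth and nutrient uptake were followed across 36 RNA-seq libraries of mouse natural killer (NK) cells, the lymphocytes that kill cells lacking self MHC class I. The genes were chosen by symbol: Myc, Slc3a2, Slc7a5, Slc7a6, Slc1a5, Slc38a1, Slc38a2 and Tfrc. All 8 were found in each of the 4 deposited tables, of which the largest lists 56923 genes and the smallest 32940. The libraries formed 12 groups of 3, and all values are TPM, a transcript level that is scaled for gene length and for the library's total. Groups were tested against each other only within a table, since each table is a separate set of deposited values. Levels set side by side across tables are descriptions. The smallest table holds no genes without a symbol, and its TPM summed to 934292 to 948786 per library, against 1000000 in the others.

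The first table held 18 libraries of CD27-CD11b+ splenic NK cells, freshly sorted from wild-type (WT) mice or from B2m knockout (KO) mice, which lack the light chain of MHC class I. TP cells were Ly49C+Ly49I+NKG2A+, SP cells were Ly49C-Ly49I+NKG2A-, and TN cells carried none of these inhibitory receptors for MHC class I. The second table held 6 libraries of NK cells purified from WT splenocytes after 22 h with ionomycin, a calcium ionophore, or with vehicle. The third held 9 libraries of NK cells from the spleen of WT mice after 48 h in culture. Of these, 3 were from medium alone, 3 from wells coated with antibody to NKp46 together with antibody to NKG2D, and 3 from wells coated with antibody to NKp46 together with antibody to DNAM-1. NKp46, NKG2D and DNAM-1 are activating receptors. The fourth held 3 libraries of CD27-CD11b+ NK cells taken on day 10 from subcutaneous tumours of the mouse colon carcinoma line MC38. The titles add the term B2m to the tumours and do not give the genotype of the host mice. The column names carry the terms B2MKO and SP, which the titles do not explain, so the host genotype was not taken as known. The ages of the mice are not given in the sources used here.

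MYC is a transcription factor that drives ribosome building, metabolism and cell growth in activated lymphocytes. Amino acids reach such cells through a small set of transporters. SLC3A2 (CD98) is a heavy chain that carries a light chain to the surface; with the light chain SLC7A5 it forms LAT1, which imports leucine and other large neutral amino acids and so feeds the kinase mTORC1, and with SLC7A6 it forms y+LAT2, which exchanges cationic for neutral amino acids. SLC1A5 exchanges glutamine and other small neutral amino acids, and SLC38A1 and SLC38A2 import glutamine and alanine with sodium. TFRC, the transferrin receptor (CD71), brings iron into the cell.

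Tfrc mRNA carries a known regulatory element, the iron-responsive element (IRE), a hairpin with a CAGTGN loop that iron regulatory proteins bind when iron is low. Bound in the 3′ UTR it protects Tfrc mRNA from decay, and bound in the 5′ UTR of a ferritin mRNA it blocks translation. A search for this loop, with a C before it and arms of 5 bases that can pair, was run on the GENCODE transcripts of the GRCm38 build. The Tfrc transcript, 4890 bases long with its coding part at 141 to 2429, held 4 matches, all in the 3′ UTR. Ftl1, the ferritin light chain, held 1 in its 5′ UTR and is shown for comparison, since its level differed between genotypes below. Sites are printed 5′ to 3′ with the loop in capitals.
Tfrc, from base 3321: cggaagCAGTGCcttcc
Tfrc, from base 3700: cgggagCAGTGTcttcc
Tfrc, from base 3765: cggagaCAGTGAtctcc
Tfrc, from base 3812: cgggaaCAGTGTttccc
Ftl1, from base 84: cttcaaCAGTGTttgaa
The loops of the Tfrc sites differ at most in their last base, and those from bases 3700 and 3812 are the same. The arms before the loop differ in sequence. Of 21901 coding genes, 294 (1.34%) held a match, and 1 of them, Tfrc, held 3 or more. The other 7 genes followed here held none. A match is a description of the sequence, not a measurement of binding.

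The libraries expressed their cell type. In the subset table the summed level of 8 NK markers ran from 17240 to 21084 TPM, and it was lower in the cultured and tumour libraries, at 5644 TPM at the lowest. B2m, the deleted gene, ran from 2915 to 3420 TPM in the 9 WT libraries and from 73.9 to 128 TPM in the 9 KO libraries. Genes of other cells were present in some: 5 neutrophil genes summed to 51.8 to 213 TPM in the KO TP libraries against 0 in every WT TP library, and the 7 B and plasma cell genes to 226 to 467 TPM against 31.5 to 42.8 TPM. The same neutrophil genes reached 364 TPM in vehicle replicate 3 and 120.2 TPM in ionomycin replicate 3, and 4 stromal genes reached 1031 TPM in tumour replicate 2. In such bulk samples, fewer cells of a type and less RNA per cell cannot be told apart. TPM keep no record of depth, so the spread over replicates is the only measure of error here.

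Among freshly sorted cells 4 of the transporters were measured at higher levels than Myc in every library, and Slc7a5 and Slc7a6 at lower median levels. Slc1a5 had a median of 186 TPM over the 18 libraries (147 to 207), Slc38a2 152 TPM (112 to 190.1), Slc3a2 139 TPM (103 to 195) and Slc38a1 83.1 TPM (73.9 to 98.2). Slc1a5, Slc38a2 and Slc3a2 overlapped in range, and Slc38a1 lay below all libraries of these 3. Myc lay below them at a median of 39.8 TPM (26.0 to 64.3), Slc7a6 at 16.4 TPM (11.7 to 36.2), Tfrc at 7.98 TPM (3.89 to 22.5) and Slc7a5 at 6.39 TPM (2.80 to 16.8). Slc38a1 was the steadiest of the 8, its highest library 1.33 times its lowest, and Slc7a5 the most variable, at 6.01 times.

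The heavy chain Slc3a2 was measured in excess of all its light chains together. Slc7a5, Slc7a6, Slc7a7, Slc7a8, Slc7a10 and Slc7a11, the light chains counted, summed to 16.1 to 43.3 TPM in the sorted libraries. Slc3a2 was 2.53 to 10.4 times this sum, with a median of 4.61. The ratio was 1.46 to 2.22 in the antibody table, 2.22 to 7.62 for ionomycin and vehicle, and 5.41 to 8.21 in tumours. These are ratios of mRNA within a library and carry no information on protein.

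Which light chain led differed by table. In the sorted libraries Slc7a6 made up a median of 66.3% of light-chain TPM and Slc7a5 21.7%; the exception was WT TP replicate 2, where Slc7a5 reached 55.9%. In the 9 libraries of the antibody table, medium included, Slc7a5 made up 58.5% to 82.8% and Slc7a6 13.4% to 37.8%. Vehicle libraries had 42.9% to 76.4% Slc7a5 and ionomycin libraries 19.6% to 42.6%. Vehicle replicate 3, which carried neutrophil genes, also had 21.0 TPM of Slc7a7. These shares are a description, and no test was made across tables.

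**Figure D1:**
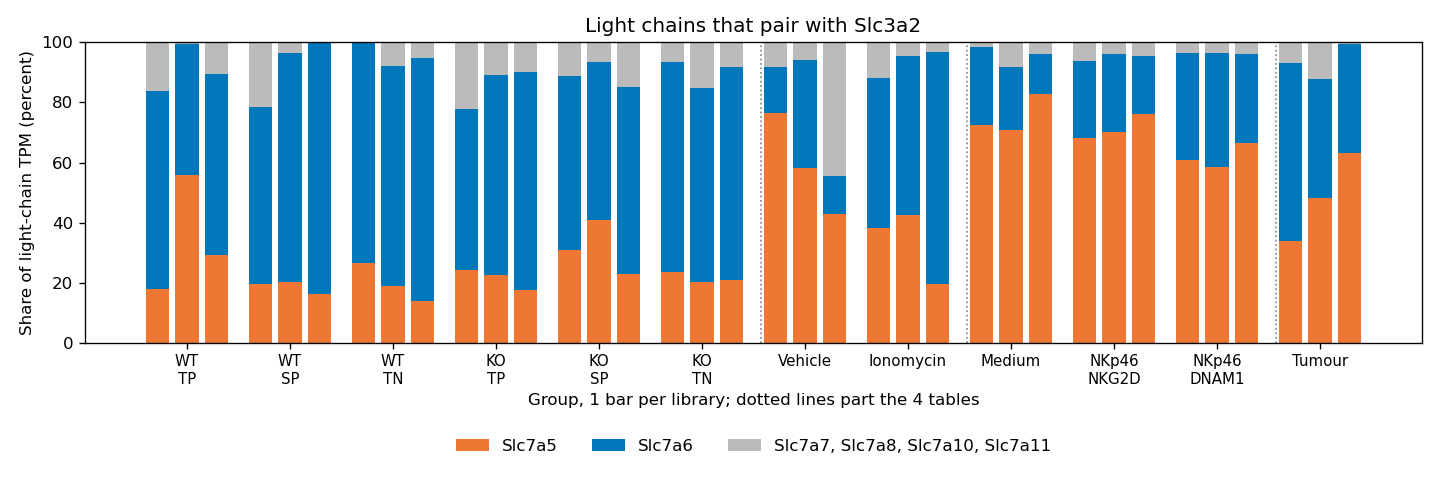
Share of light-chain TPM (percent) taken by Slc7a5, by Slc7a6 and by the other 4 light chains, 1 bar per library in group order. Slc7a6 is the larger part of most sorted-subset bars and Slc7a5 of every bar in the antibody table, where it takes 58.5% to 82.8%.

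Myc was higher in TN cells than in TP cells, by 1.65 times when both genotypes are averaged. In WT mice it measured 36.5, 41.2 and 26.2 TPM in the TP libraries, 41.9, 61.5 and 42.3 TPM in SP, and 53.9, 64.3 and 57.0 TPM in TN. In KO mice it measured 28.1, 26.1 and 26.0 TPM in TP, 33.3, 34.2 and 31.6 TPM in SP, and 38.4, 44.8 and 46.1 TPM in TN. In both genotypes the TN and TP libraries did not overlap, and SP lay between them in mean. Of all genes, 14.6% in WT and 13.2% in KO cells were also without overlap between TN and TP.

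The TN to TP difference, averaged over genotypes, was 0.71 on the log2(TPM + 1) scale (SE 0.12) with an adjusted p of 0.00363 in limma, the test used for every comparison, adjusted over all 12018 genes of the table. Myc was the only one of the 8 genes called (adjusted p under 0.05) in this comparison, where 1.89% of all genes were called. Leaving out any single library kept the adjusted p between 0.00244 and 0.0136. Within WT mice the difference was 0.76 (SE 0.17, adjusted p = 0.0389), again the 1 call among 8 genes, with 1.31% of all genes called. That call was lost without any 1 of 5 of the 6 libraries (all but WT TP replicate 2; adjusted p 0.0717 to 0.16 in those 5) and in a fit on WT TN and WT TP alone (adjusted p = 0.329). Within KO mice the difference was 0.67 (SE 0.17, adjusted p = 0.152). There 0 of 8 genes were called, with 0.524% of all genes called. Of the 8, 1 had an unadjusted p under 0.05, as did 773 of all 12018 genes. The test of whether the difference varied with genotype gave -0.09 (SE 0.25, adjusted p = 0.98).

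**Figure D2:**
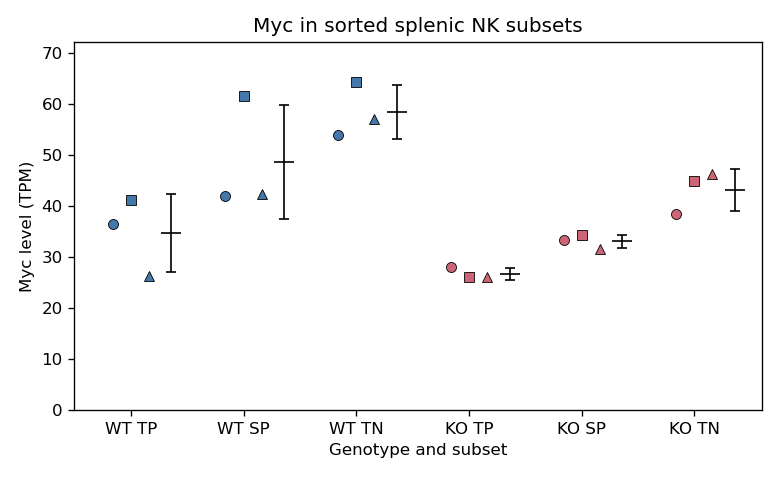
Myc level (TPM) in 6 groups of sorted NK cells; circles, squares and triangles are replicates 1, 2 and 3, and bars are mean ± SD (n = 3). In each genotype the 3 TN libraries lie above the 3 TP libraries, and WT TN is the highest group at 53.9 to 64.3 TPM.

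The growth genes linked to MYC did not move as a group between these subsets. Of 22 such genes, 0 were called between TN and TP cells over both genotypes. Their median log2 difference was 0.03 against -0.02 for all genes. An unadjusted p under 0.05 was found for 4 of the 22 and for 1409 of all 12018 genes. In WT mice 1 of the 22 rose in TN cells: Nop58, a core protein of ribosomal RNA processing, at 93.2 ± 5.05 TPM (SD, n = 3) against 49.8 ± 7.92 TPM in TP cells (log2 0.90, adjusted p = 0.0107). Of 8 MYC partners and antagonists tested, 0 were called between TN and TP cells over both genotypes and 1 had an unadjusted p under 0.05. Mki67, a marker of dividing cells, differed in the direction opposite to Myc, at 3.20 TPM in TN and 8.46 TPM in TP cells (log2 -1.08, adjusted p = 0.0206).

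Loss of B2m went with less Myc and more Slc38a2. These were 2 calls among the 8 genes in the difference between KO and WT averaged over the 3 subsets, where 6.18% of all genes were called. Libraries of different subsets that share a number may come from the same mouse, so 9 libraries may stand for 3 mice. The 9 WT libraries of Myc had a median of 42.3 TPM (26.2 to 64.3) and the 9 KO libraries 33.3 TPM (26.0 to 46.1), and the ranges overlapped. The difference was -0.43 (SE 0.10, adjusted p = 0.0161). Without the TP libraries it was -0.48 with an adjusted p of 0.0556. Mki67 differed in the same direction as Myc here, at 3.31 TPM in KO and 6.77 TPM in WT cells (log2 -0.71, adjusted p = 0.0381). The part of dividing cells in the Myc values was not tested.

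Slc38a2, the sodium-coupled transporter SNAT2, was higher in all 9 KO libraries than in any WT library. In WT cells it measured 129, 135 and 126 TPM in TP, 132, 112 and 133 TPM in SP, and 130.2, 138 and 147 TPM in TN. In KO cells it measured 190.1, 168 and 156 TPM in TP, 165, 169 and 162 TPM in SP, and 169, 163 and 165 TPM in TN. The lowest KO library thus lay above the highest WT library, a separation whose share over all genes was not counted. Within single subsets, 18.3% (TP), 18.9% (SP) and 13.7% (TN) of all genes did not overlap between KO and WT. KO cells averaged 1.27 times the WT level (log2 0.35, SE 0.05, adjusted p = 0.000519), and with the TP libraries left out the difference was 0.33 (adjusted p = 0.0153).

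Taken subset by subset, the Slc38a2 difference was 0.39 in TP cells (adjusted p = 0.0424), 0.40 in SP cells (adjusted p = 0.0398) and 0.26 in TN cells (adjusted p = 0.305). In TP cells it was the 1 call among 8, with 1.59% of all genes called. In SP cells there were 2 calls among 8, with 1.35% called. In TN cells 0 of 8 were called, with 0.716% of all genes called. There 2 of the 8 had an unadjusted p under 0.05, as did 1263 of all 12018 genes. The single-subset calls were not firm: median-of-ratios rescaling took the TP value to an adjusted p of 0.0625, and without a single library it was 0.082 to 0.205 in 5 of 6 cases. The SP value lost its call without WT SP replicate 2 (adjusted p = 0.162) and without any single KO SP library (0.101 to 0.146).

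The other call in SP cells was Slc3a2, at 103, 117 and 109 TPM in WT and 145, 195 and 149 TPM in KO libraries (log2 0.55, SE 0.13, adjusted p = 0.0365). It was lost in 5 of 6 fits that left out a library, and the adjusted p was 0.193 without KO SP replicate 2, the highest library. In TP cells Slc3a2 measured 106, 106 and 136 TPM in WT and 144, 141 and 166 TPM in KO, again without overlap (adjusted p = 0.187). In TN cells the order was the other way, with 154, 157 and 142 TPM in WT and 124, 119 and 134 TPM in KO (log2 -0.26, adjusted p = 0.481). Of all genes, 18.9% did not overlap between KO and WT in SP cells, 18.3% in TP cells and 13.7% in TN cells. Averaged over subsets the difference was 0.22 (adjusted p = 0.0859).

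Slc3a2 therefore followed the subsets in opposite order in the 2 genotypes: every WT TN library lay above every WT TP library, and every KO TN library below every KO TP library. Of all genes, 14.6% (WT) and 13.2% (KO) were apart between TN and TP in either direction. The test of this difference of differences for Slc3a2 gave -0.64 (SE 0.18) with an unadjusted p of 0.00225 and an adjusted p of 0.451, so it was not called. None of the 8 genes was called in that test, where 0.025% of all genes were. The same held in the matching test of SP against TP, where 0.0166% were. An unadjusted p under 0.05 was found for 1 of the 8 in each, Slc3a2 and Slc7a6. Of all 12018 genes, 754 and 530 had such a p.

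**Figure D3:**
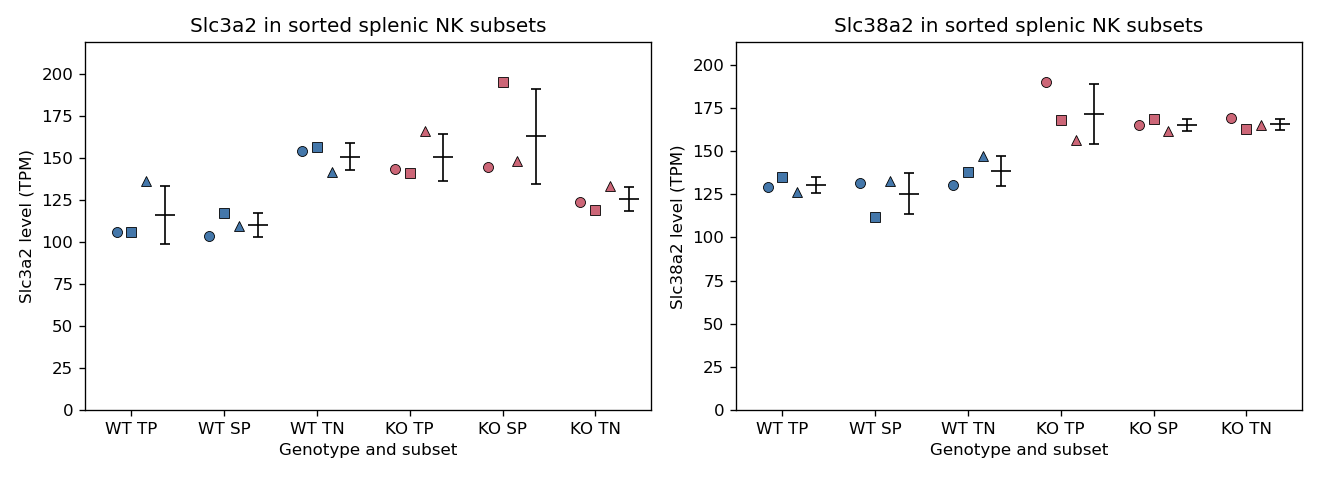
Slc3a2 (left) and Slc38a2 (right) level in TPM in 6 groups of sorted NK cells; circles, squares and triangles are replicates 1, 2 and 3, bars are mean ± SD (n = 3), blue is WT and red is KO. All KO libraries of Slc38a2 lie above all WT libraries, a separation whose share over all genes was not counted. Slc3a2 is higher in KO for TP and SP and lower in KO for TN.

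Stress genes moved with genotype as well. Of 16 immediate-early and heat shock genes, a list added after the data were seen, 14 were tested; 3 were higher and 2 lower in KO cells averaged over subsets. Dnajb1, a heat shock co-chaperone, had 92.5 TPM in KO and 42.7 TPM in WT (log2 1.09, adjusted p = 2.95e-05), while Egr1, an immediate-early factor, had 3.65 TPM against 10.5 TPM (log2 -1.23). In the 29-gene list of the response to amino acid shortage, of which 25 were tested, 1 rose and 1 fell. Ddit4 (REDD1), an inhibitor of mTORC1 that several stresses induce, had 134 TPM in KO and 49.1 TPM in WT (log2 1.43, SE 0.12), and it was called in each of the 3 subsets. Atf4, the factor that drives the response and a known inducer of Slc38a2, was slightly lower, at 185 against 206 TPM (log2 -0.16, adjusted p = 0.0432). The part of handling stress, and of the neutrophil and plasma cell genes of the KO TP libraries, in the results on Slc38a2 and Myc was not tested.

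Other genes of these pathways were counted against the 6.18% of all genes called between KO and WT. Of 13 iron genes tested 3 rose, among them Ftl1 at 636 against 545 TPM (log2 0.22, adjusted p = 0.00178) and Hmox1, which frees iron from haem, at 3.00 against 0.693 TPM (log2 1.23); Tfrc itself had 7.26 against 9.29 TPM (log2 -0.25, SE 0.24, adjusted p = 0.613). Of 8 MYC partners and antagonists 1 rose: Mxd1, which competes with MYC for MAX, at 120.3 against 97.3 TPM (log2 0.31, adjusted p = 0.0349). Of 22 MYC-linked growth genes 1 rose, Nolc1 (log2 0.38). Of 21 mTORC1 genes Flcn rose (log2 0.27) and Castor1, an arginine sensor, fell (log2 -0.66). None of the 13 tested other amino acid transporters was called, and 3 had an unadjusted p under 0.05, as did 2346 of all 12018 genes.

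The remaining comparisons of sorted cells gave no call among the 8 genes. In WT cells this held for SP against TP (0.191% of all genes called) and TN against SP (0.383%); in KO cells it held for SP against TP (0.2%) and TN against SP (0.0416%). Unadjusted p-values under 0.05 numbered 1, 2, 0 and 3 of the 8 in these. Over all 12018 genes they numbered 927, 1452, 352 and 333, in the same order. In WT cells Slc3a2 was 0.45 higher on the log2 scale in TN than in SP (SE 0.13, adjusted p = 0.155). Slc1a5 came next there, at 191, 194 and 187 against 152, 159 and 147 TPM (log2 0.32, SE 0.09, adjusted p = 0.159). Slc7a5 and Tfrc varied too much among replicates to separate groups: WT TP libraries of Slc7a5 measured 4.29, 16.8 and 5.96 TPM, and WT SP libraries of Tfrc 6.64, 22.5 and 9.18 TPM. With 95% confidence, the KO to WT difference averaged over subsets lay between -0.55 and 0.57 for Slc7a5 and between -0.76 and 0.25 for Tfrc on the log2 scale.

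Ionomycin, which raises calcium as receptor signalling does, was compared with vehicle in the second table. None of the 8 genes was called, and 2 had an unadjusted p under 0.05, as did 2169 of all 14372 genes. Of all genes, 2.91% (418) were called. That last count rested on single libraries: it was 6, 3 and 5 without ionomycin replicate 1, 2 or 3, 24 without vehicle replicate 2, and 0 without replicate 3 of both groups. Slc7a5 had the widest difference: 16.0, 19.3 and 8.69 TPM with ionomycin and 73.7, 55.9 and 21.0 TPM with vehicle. The groups did not overlap, although the highest ionomycin library and vehicle replicate 3 were close. Of all genes, 20.1% did not overlap between ionomycin and vehicle, and 3 of the 8 genes did not. The log2 difference of Slc7a5 was -1.60 (SE 0.52, unadjusted p = 0.0133, adjusted p = 0.169). With replicate 3 of both groups left out, the libraries with neutrophil genes, it was -1.81 (adjusted p = 0.171).

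The other transporters gave smaller differences that pointed both ways. Slc38a1 measured 117, 135 and 115 TPM with ionomycin and 105, 70.3 and 70.2 TPM with vehicle (log2 0.60, SE 0.25, adjusted p = 0.298). Slc3a2 measured 278, 346 and 278 TPM against 214, 239.9 and 272 TPM (log2 0.31, adjusted p = 0.537). Neither pair of groups overlapped, but for Slc3a2 vehicle replicate 3 came close to the lower ionomycin libraries. Slc38a2 measured 204, 177 and 127 TPM against 215, 302 and 202 TPM (log2 -0.50, adjusted p = 0.42), and Myc 114, 76.9 and 61.2 TPM against 188, 120.2 and 56.0 TPM (log2 -0.41, adjusted p = 0.723). Both overlapped. Tfrc had 46.7 ± 17.6 TPM against 37.5 ± 8.06 TPM (SD, n = 3), Slc1a5 154 against 164 TPM and Slc7a6 26.3 against 18.6 TPM, all with overlapping groups.

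**Figure D4:**
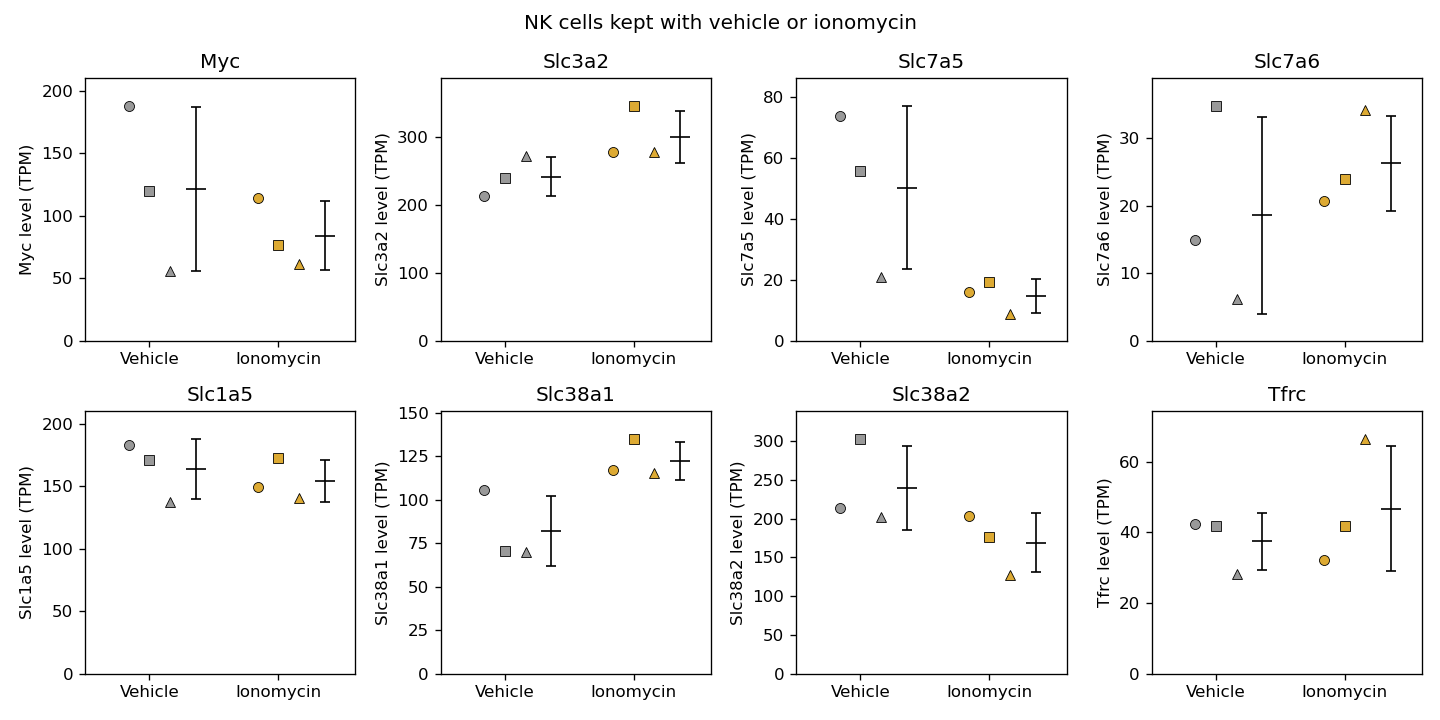
Level (TPM) of the 8 genes in NK cells kept for 22 h with vehicle (grey) or ionomycin (yellow); circles, squares and triangles are replicates 1, 2 and 3, and bars are mean ± SD (n = 3). Slc7a5 lies at 8.69 to 19.3 TPM with ionomycin and at 21.0 to 73.7 TPM with vehicle.

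Around these genes, Mxd1 fell with ionomycin from 469 to 42.8 TPM (log2 -3.51, adjusted p = 0.0102), the 1 call among 9 MYC partners and antagonists. In the amino acid response list 1 of 28 fell, Ddit4 from 72.9 to 20.3 TPM (log2 -1.76, adjusted p = 0.0281), 5 had an unadjusted p under 0.05, and the list's median was -0.46 against -0.0044 for all genes. By limma 0 were called of 22 MYC-linked growth genes, 14 other amino acid transporters, 13 iron genes and 21 mTORC1 genes. An unadjusted p under 0.05 was found for 4, 2, 1 and 6 of them, and for 2169 of all 14372 genes. NK genes moved too: Ncr1, which encodes NKp46, fell from 795 to 123 TPM (log2 -2.64) and Gzma from 5109 to 1076 TPM (log2 -2.21). Their part in the values of the transporters was not tested. The calls named in this paragraph come from the fit of all libraries of the table. As given above, most calls over all genes were lost without any single ionomycin library.

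Coated antibodies were compared with medium among the cultured cells, where both pairs of antibodies share the 3 medium libraries. No gene of the 8 was called with NKp46 and NKG2D (0.431% of all genes called) or with NKp46 and DNAM-1 (0.782% called). Of all 13689 genes, 2069 (NKG2D) and 2458 (DNAM-1) had an unadjusted p under 0.05, as did 4 of the 8 in each. These 4 were Slc3a2, Slc7a5 and Slc38a2, whose values were lower on antibodies, and Tfrc, whose values were higher. Groups were read from the column names; the sample titles give another group for 6 of the 9 libraries, and with the titles' groups the values changed as given below.

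Slc3a2 measured 275, 289.7 and 309 TPM in medium, 185, 204 and 216 TPM with NKG2D antibody, and 233, 178 and 177 TPM with DNAM-1 antibody. All medium libraries lay above all antibody libraries. Of all genes, 17.3% did not overlap with medium for NKG2D and 21.1% for DNAM-1, in either direction, and 3 of the 8 genes in each. The Slc3a2 difference from medium was -0.53 (SE 0.12, adjusted p = 0.114) with NKG2D and -0.58 (SE 0.12, adjusted p = 0.0697) with DNAM-1, where it passed without DNAM-1 replicate 1 (adjusted p = 0.0482).

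Its light chain Slc7a5 measured 116, 115 and 138 TPM in medium, 64.4, 93.8 and 112 TPM with NKG2D, and 63.6, 69.0 and 76.2 TPM with DNAM-1. The DNAM-1 difference was -0.81 (SE 0.19, adjusted p = 0.0926), and the NKG2D difference, whose highest library came close to medium, was -0.47 (SE 0.19, adjusted p = 0.283). Slc38a2 measured 178, 162 and 158 TPM in medium, 105, 114 and 135 TPM with NKG2D, and 111, 104 and 118 TPM with DNAM-1. Again no antibody library reached medium, and 17.3% (NKG2D) and 21.1% (DNAM-1) of all genes were apart from medium too. The Slc38a2 differences were -0.49 (SE 0.12, adjusted p = 0.129) and -0.57 (SE 0.12, adjusted p = 0.0672). With replicate number as a block, Slc7a5 (adjusted p = 0.0245) and Slc38a2 (adjusted p = 0.0391) were called with DNAM-1. With groups taken from the titles the DNAM-1 differences were 0.43 for Slc7a5, 0.09 for Slc38a2 and -0.00052 for Slc3a2, and the NKG2D differences were 0.22, -0.03 and -0.06, none called.

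Tfrc measured 29.5, 45.4 and 76.4 TPM in medium, 97.5, 69.6 and 88.1 TPM with NKG2D, and 70.5, 84.3 and 104 TPM with DNAM-1. Medium replicate 3 overlapped both antibody groups. The differences were 0.83 (SE 0.30, adjusted p = 0.242) and 0.85 (SE 0.30, adjusted p = 0.197); without medium replicate 3 they were 1.18 (adjusted p = 0.0552) and 1.20 (adjusted p = 0.0423). With groups from the titles they were 0.13 and 0.59, neither called. That library was also the highest of the 3 medium libraries in Mki67, at 81.6 TPM against 12.8 and 38.3 TPM, while the antibody libraries had 60.8 to 199 TPM. The part of dividing cells in the Tfrc values was not tested.

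**Figure D5:**
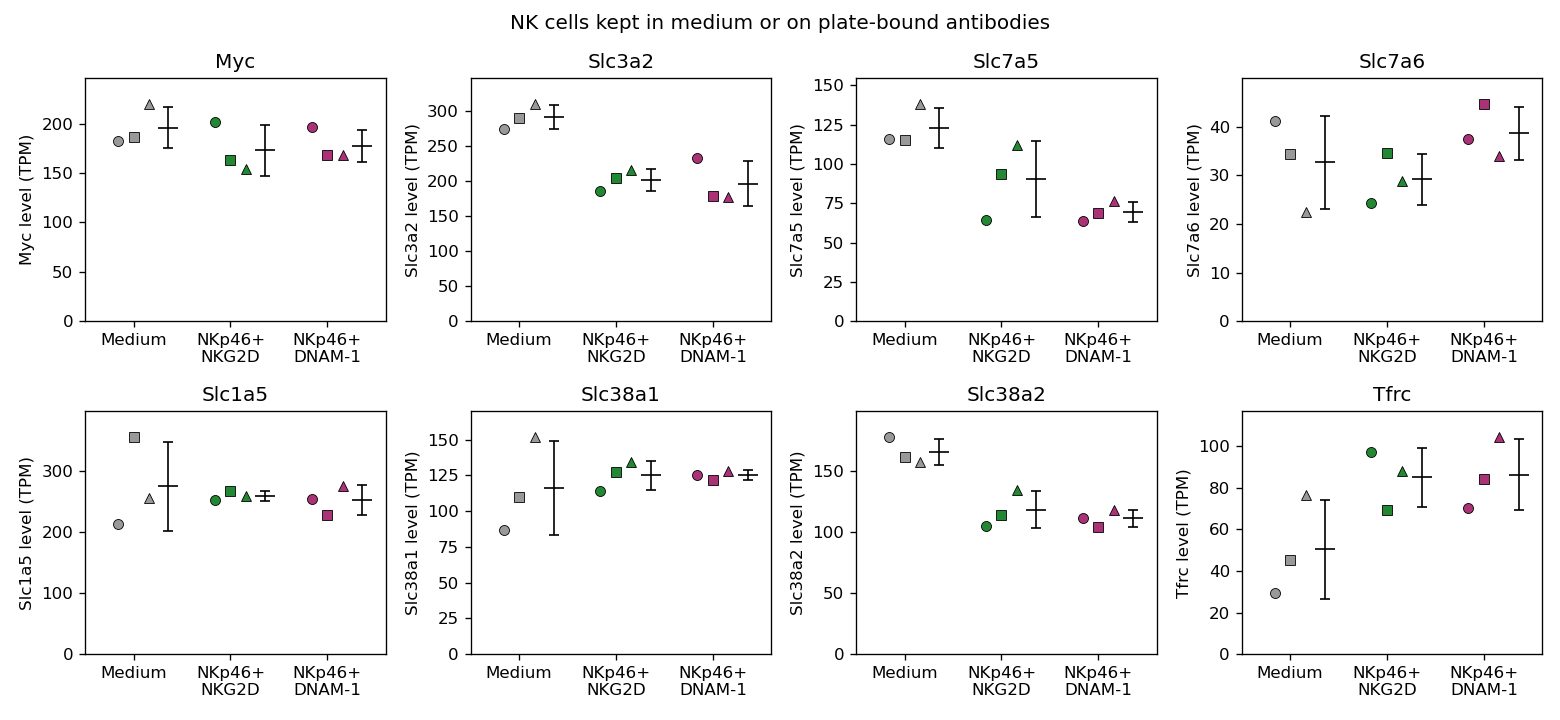
Level (TPM) of the 8 genes in NK cells kept for 48 h in medium (grey), with antibodies to NKp46 and NKG2D (green) or with antibodies to NKp46 and DNAM-1 (purple); circles, squares and triangles are replicates 1, 2 and 3, and bars are mean ± SD (n = 3). Slc3a2, Slc7a5 and Slc38a2 are lower in all 6 antibody libraries than in medium, and Tfrc in medium replicate 3, at 76.4 TPM, lies within the antibody range.

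The other 4 genes overlapped between medium and antibodies. Myc measured 183, 186 and 219.6 TPM in medium, 202, 163 and 154 TPM with NKG2D, and 197, 169 and 168 TPM with DNAM-1 (log2 -0.19 and -0.14, SE 0.13 in each). The 95% intervals of these Myc differences ran from -0.48 to 0.11 and from -0.44 to 0.16. Slc1a5 had 275 ± 72.7 TPM in medium and 259 ± 7.47 and 252 ± 24.2 TPM on antibodies, Slc38a1 116 ± 32.7 against 125 ± 10.1 and 125 ± 3.48 TPM, and Slc7a6 32.7 ± 9.56 against 29.2 ± 5.24 and 38.6 ± 5.45 TPM (SD, n = 3). The antibody pairs were not told apart by any of the 8 genes: 0 were called between them, with 0.0146% of all genes called. Of the 8, 0 had an unadjusted p under 0.05, against 167 of all 13689 genes.

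Among 28 tested genes that respond to amino acid shortage, 5 fell and 0 rose with DNAM-1 antibody, where 0.782% of all genes were called: Trib3 (19.7 to 2.46 TPM, log2 -2.50), the tRNA synthetases Cars (98.7 to 48.2 TPM) and Tars (167 to 87.0 TPM), Atf4 (431 to 279 TPM, log2 -0.62) and Shmt2 of serine and glycine metabolism (log2 -0.62), the last named after its value was seen. With groups from the titles, 1 gene of all those tested was called with DNAM-1 and 0 with NKG2D, against 107 and 59 here. The list's median was -0.46 against -0.04 for all genes. With NKG2D antibody 0 of the 28 were called, and the median was -0.32. Of the 28, 9 had an unadjusted p under 0.05, as did 2069 of all 13689 genes. Slc1a4, a transporter of alanine, serine and cysteine, was the 1 of 15 other amino acid transporters called, at 3.09 ± 0.272 TPM with DNAM-1 against 12.8 ± 4.77 TPM in medium (SD, n = 3; log2 -1.70, adjusted p = 0.0455).

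Of 22 MYC-linked genes 1 rose with each pair of antibodies, Ldha of glycolysis, from 356 TPM to 676 TPM with NKG2D (log2 0.93) and to 694 TPM with DNAM-1 (log2 0.96). The medians of the list were 0.23 and 0.31 against -0.04 for all genes. Tsc2, a brake on mTORC1, fell with DNAM-1 (72.8 to 33.1 TPM, log2 -1.12, adjusted p = 0.0337), the 1 call among 22 mTORC1 genes, and 0 of 13 iron genes were called with either pair, 1 in each with an unadjusted p under 0.05. The list of immediate-early and heat shock genes, added after the data were seen, had 14 tested genes here. Of these 14, 7 fell and 0 rose with each pair. Among the 7 was the immediate-early gene Egr1, which fell from 1836 TPM to 291 and 294 TPM. The part of these genes in the transporter values was not tested.

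In the tumour table there was no comparison group, and levels are given alone. Slc3a2 measured 709, 457 and 502 TPM and Slc38a2 513, 424 and 438 TPM; both lay above the 97th percentile of the expressed genes in every library. Slc38a2 was 2.89 to 4.45 times Slc38a1, which measured 177, 95.2 and 127 TPM. Slc7a5 measured 29.3, 40.8 and 48.6 TPM, Slc7a6 51.1, 33.5 and 27.6 TPM and Slc1a5 176, 219 and 109 TPM. Myc measured 77.4, 117 and 149 TPM and Tfrc 58.4, 52.3 and 40.9 TPM. The stromal genes summed to 38.5, 1031 and 833 TPM and 7 erythroid genes to 0, 209 and 336 TPM in these libraries. Slc3a2, Slc38a2, Slc38a1, Slc7a6 and Tfrc were highest in replicate 1, where those sums were lowest, Myc and Slc7a5 were lowest there, and Slc1a5 was highest in replicate 2. The part of such cells in these levels was not tested.

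The ratio of the related transporters Slc38a2 and Slc38a1 described the other tables too. It was 1.40 to 1.73 in WT and 1.72 to 2.43 in KO sorted cells, 2.04 to 4.30 with vehicle and 1.11 to 1.74 with ionomycin, and 1.04 to 2.04 in medium against 0.861 to 1.01 on antibodies. Ranges within the ionomycin table and within the antibody table did not overlap, but medium replicate 3 (1.04) and NKG2D replicate 3 (1.01) were close. The antibody groups are those of the column names. How many other ratios were apart was not counted. Of single genes, 20.1% were apart with ionomycin, 17.3% with NKG2D and 21.1% with DNAM-1.

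The genes most like 3 of the 8 in pattern were sought over the 15 libraries of the ionomycin and antibody tables, each table centred on its own mean, among 10470 genes. Myc was most like Cdk2ap2 (r = 0.94), Slc15a3 (0.91) and Atf6b (0.91). Slc7a5 was most like H3f3b, a histone H3.3 gene (0.95), Rrp1b (0.95) and Aars, the alanyl-tRNA synthetase (0.95). Tfrc was most like Cnot9 (0.89), Psmc3ip (0.88) and Lysmd2 (0.86). These correlations describe libraries that share groups and were picked as the highest of many; for Cdk2ap2 the value was 0.99 within the 6 ionomycin-table libraries and 0.62 within the 9 antibody-table libraries.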

How the data were processed

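RNA with a RIN above 7 went into a poly(A) mRNA library kit, per the labels' protocols. STAR, RSEM and the GRCm39 build are named in the submitters' processing notes without versions. The authors deposited TPM values, which keep no depth; genes above 0 per library ran from 12290 to 18096. Subset, ionomycin and tumour groups came from titles, antibody groups from the column names in the descriptions. Values were taken as log2(TPM + 1) for genes that averaged 1 TPM or more across a table's libraries (12018, 14372 and 13689 genes). Limma 3.58.1 in R 4.3.3 fitted all groups of a table with an intensity trend, two-sided, with Benjamini-Hochberg adjustment over all genes tested and a call at an adjusted p under 0.05. The procedure was tested on simulated data. With 3 against 3 an exact permutation test cannot go below p = 0.1. Titles call the samples biological replicates without saying that each is a separate mouse, so p-values measure the spread between these samples. Each table carries 1 batch number, and the 4 tables hold 3 batches, since the ionomycin and tumour tables share a number. Same-numbered libraries correlated by 0.00058 (WT), 0.0203 (KO), 0.062 (ionomycin) and 0.0639 (antibody) in their deviations on average. By that measure 4 of 9, 7 of 9, 5 of 6 and 7 of 9 libraries matched best with their own number, and the column names carry one number across conditions, which may mark a mouse. Of same-numbered pairs, 0 of 9 (WT), 0 of 9 (KO), 1 of 3 (ionomycin) and 1 of 9 (antibody) passed 0.1. Since few passed and no label states a shared mouse, numbers were not taken as pairs, and the block is an alternative. The best matches leave pairing possible, and the antibody counts depend on this choice, as given below.

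The 8 genes and all lists (other transporters, MYC partners and antagonists, MYC-linked growth, iron, amino acid response, mTORC1, cell markers) were chosen with earlier results of these data known. Up to 4 called genes with the largest change were named per list and comparison. Alternatives were another pseudocount (0.1), filters (none, 5 TPM), rescalings, no trend, fits on the groups compared, a replicate block, groups from titles, and leaving out libraries; leaving out all TP or both number-3 libraries was added after seeing the data. No coordinates are given, since the annotation used for IRE matches is of another build.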

Additional observations from a re-analysis of the deposited data

How the results depend on the processing

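Of 2168 log2 changes of the 8 genes recomputed under alternatives, 2004 kept their direction and side of the threshold, 34 lost a call, 7 gained one, and 123 that were uncalled in both changed direction. The 1 call for TN against TP over genotypes was 1 under all settings run. The 2 calls for KO against WT over subsets were 3 without WT TP replicate 2 (Slc1a5 gained, adjusted p = 0.0395) and without WT TP replicate 3 (Slc3a2 gained, adjusted p = 0.0367), 1 with all TP libraries left out, and 2 under the other settings. The 1 call of WT TN against WT TP was 0 with no filter, no trend or only the groups compared, and 0 to 1 without single libraries. The 1 call of KO TP against WT TP was 0 with median-of-ratios rescaling, quantile normalization, no trend or only the groups compared, and 0 to 1 without single libraries. The 2 calls of KO SP against WT SP were 1 with no filter and under both rescalings, 0 with no trend or only the groups compared, and 0 to 1 without single libraries. With a replicate block, DNAM-1 against medium had 2 calls in place of 0, and leaving out single libraries gave 0 to 2; the block changed no other count among the 8 genes. The causes were not tested. Over all genes, the block took the calls from 107 to 528 with DNAM-1 and from 59 to 239 with NKG2D, and groups from the titles took them to 1 and 0. Without medium replicate 3 they were 516 and 257. Ionomycin calls went from 418 to 185 without the filter, 172 without the trend, and as low as 3 without a single library. Fits on only the groups compared took single-subset counts down, for example from 157 to 21 for WT TN against WT TP and from 191 to 43 for KO TP against WT TP. KO against WT over subsets had 253 calls without the TP libraries in place of 743. Median-of-ratios rescaling moved the higher share there from 459 of 743 to 358 of 708, and for KO TP against WT TP from 118 of 191 to 94 of 187. Depth is unknown, which limits what can be said of Slc7a5 and Tfrc at the low levels of sorted cells.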
